A study of Prunus sibirica with 6 samples.

Results

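The GDSL genes of the Siberian apricot, Prunus sibirica, were taken from a table of 31889 genes by the letters GDSL in the gene description, which gave 139 genes. GDSL esterases and lipases are hydrolases named for a short motif around their catalytic serine, and most are secreted. In plants they act on surface and storage lipids and on other esters. Known members include cutin synthases of the epidermis, lipases of the pollen coat and enzymes of defence. The letters also occur in the domain name of a separate family, the trichome birefringence (TBL) and PMR5 proteins, which share the catalytic fold and transfer acetyl groups onto xylan, xyloglucan and pectin of the cell wall. The descriptions therefore divided the 139 genes into 76 with the GDSL lipase domain as their only domain, 44 of the TBL type, 6 gene models in which either domain was joined to an unrelated one, and 13 that carried GDSL in the protein name without either domain. Only the 76 genes, with 4 of the joined models, are GDSL lipases by their domain, and the label esterase and lipase does not describe the TBL type.

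RNA was sequenced from whole floral organs at bloom, collected while the trees stood under natural frost at -4 °C. Clone 338 has strong frost resistance and clone 28 weak frost resistance, and each gave 3 libraries, called strong and weak libraries 1, 2 and 3 here. All 6 libraries come from frosted flowers, and each level of resistance is represented by 1 clone, so frost resistance and any other trait of the clones cannot be told apart. The labels do not say whether libraries of the same clone are from different trees, and the p-values therefore cover the variation among these 6 samples, part of which may be technical. Levels are FPKM, fragments per kilobase of gene length with a scaling per library, as the authors deposited them. The library size behind this scaling was not the number of reads assigned to genes. It was 0.618 and 0.663 times those reads in weak libraries 1 and 2, and 1.18 to 1.42 times in the others. A read in a gene of 1 kb was thus worth 0.0965 and 0.0921 FPKM in weak libraries 1 and 2, against 0.0372 to 0.0514 in the others.

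Reads assigned to genes numbered 16367632 to 18866306 per library. Weak library 3 stood apart from weak libraries 1 and 2, with Pearson correlations of log2 values across genes of 0.849 and 0.861 with them and of 0.894 to 0.925 with the strong libraries. Genes described by pollen or anther terms (133 genes, 23 of them at 0 in every library) summed to 52884, 46685 and 16697 FPKM in weak libraries 1, 2 and 3 and to 12217, 18530 and 9428 FPKM in strong libraries 1, 2 and 3. Of the 75 pollen genes tested, 1 was higher in the strong clone and 7 were lower (10.7%, against 15.3% of all tested genes). In whole flowers, fewer cells of a type and less RNA per cell cannot be told apart. The sum of the pollen genes was thus higher in strong library 2 than in weak library 3.

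The GDSL genes had a lower summed level in every library of the strong clone than in any library of the weak clone. The 139 genes summed to 746, 855 and 698 FPKM in strong libraries 1, 2 and 3, and to 2608, 2234 and 1130 FPKM in weak libraries 1, 2 and 3. The sums of the clones did not overlap, and weak library 3 lay nearest to the strong libraries. The mean was 766 ± 80.4 FPKM for the strong and 1991 ± 769 for the weak clone (SD, n = 3), a ratio of 2.60 (exact permutation p = 0.1, two-sided, the smallest that 3 against 3 allows). In reads, which do not carry the FPKM scaling, the family had 30845, 30410 and 33941 in the strong libraries and 45580, 41094 and 40715 in the weak libraries, a ratio of 1.34. As a share of all FPKM in the library, which allows for the larger FPKM totals of weak libraries 1 and 2, the family stood at 0.149%, 0.145% and 0.150% in the strong libraries and at 0.214%, 0.202% and 0.195% in the weak libraries. The share of the lipase-domain genes was 0.0795% ± 0.00141 for the strong and 0.135% ± 0.0155 for the weak clone (SD, n = 3). Without PARG12119 it was 0.0791% ± 0.00127 and 0.101% ± 0.00530, still without overlap. For the TBL type the shares overlapped, at 0.0507% ± 0.00352 and 0.0522% ± 0.00404 (exact permutation p = 0.7). The number of GDSL genes at 1 FPKM or more was 71, 66 and 67 in the strong libraries and 66, 73 and 71 in the weak libraries, which overlapped (exact permutation p = 0.7).

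**Figure D1:**
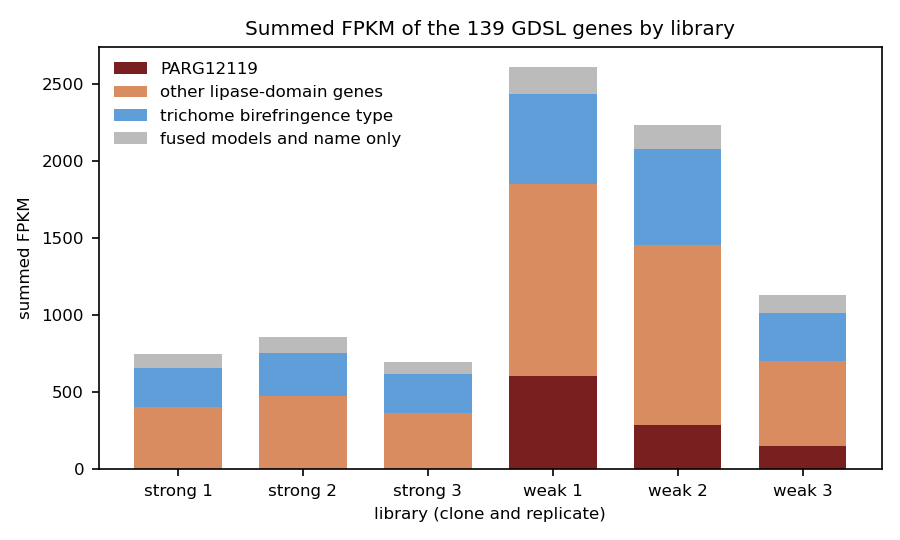
Stacked bars give the summed FPKM of the 139 GDSL genes in each of the 6 libraries, divided into PARG12119, the other lipase-domain genes, the trichome birefringence type, and joined models with genes that have GDSL in name only. The strong libraries reach 698 to 855 FPKM and the weak libraries 1130 to 2608 FPKM, with PARG12119 visible only in the weak libraries.

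A few genes made up much of this sum. The 5 most abundant members of each library, ranked within it, took 28.6%, 29.8% and 27.0% of the family sum in the strong libraries and 52.0%, 48.2% and 38.3% in the weak libraries. PARG12119 led in all 3 weak libraries, where it took 23.1%, 12.8% and 13.3% of the family sum, against 0.158% to 0.409% in the strong libraries. In strong libraries 1 and 2 the most abundant member was PARG02752, and in strong library 3 it was PARG06059, both lipase-domain genes.

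The test asked which members differed between the clones. It was limma on log2(FPKM + 1), run on every gene with at least 1 FPKM in at least 3 libraries, with Benjamini-Hochberg adjustment over all 16462 genes tested. Of the 139 members 72 were tested (51.8%, against 51.6% of all genes). At an adjusted p below 0.05, 3 members were higher in the strong clone and 18 were lower, where 7.53% of all tested genes were higher and 7.78% lower, or 15.3% in either direction. The clones did not overlap in 36 members, 12 with the strong clone above and 24 with it below, where 23.3% and 22.1% of all tested genes, together 45.4%, did so. At an unadjusted p below 0.05 (45.8% of all tested genes) 14 members were on the higher side and 26 on the lower. The median log2 difference, strong minus weak, was -0.47 over the members tested and 0.05 over all genes tested. With each library rescaled to an equal sum of FPKM, the medians became 0.31 and 0.75, so that the sign of the family median turned while it still lay below that of all genes, and 4 members were higher and 14 lower (10.6% and 4.63% of all genes, together 15.2%). With quantile scaling 4 were higher and 20 lower (9.05% and 10.3% of all genes, together 19.4%). Without weak library 3, 21 members were higher and 34 lower, where 38.0% and 35.4% of all genes were, together 73.4%. Without strong library 1, 2 or 3, or without weak library 1 or 2, 2, 5, 2, 9 and 5 members passed, where 1.01% to 3.71% of all genes did. The members that passed in every one of these runs of the test were PARG12119 and PARG11985, and the calls of the other 19 members were each lost without at least 1 library.

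**Figure D2:**
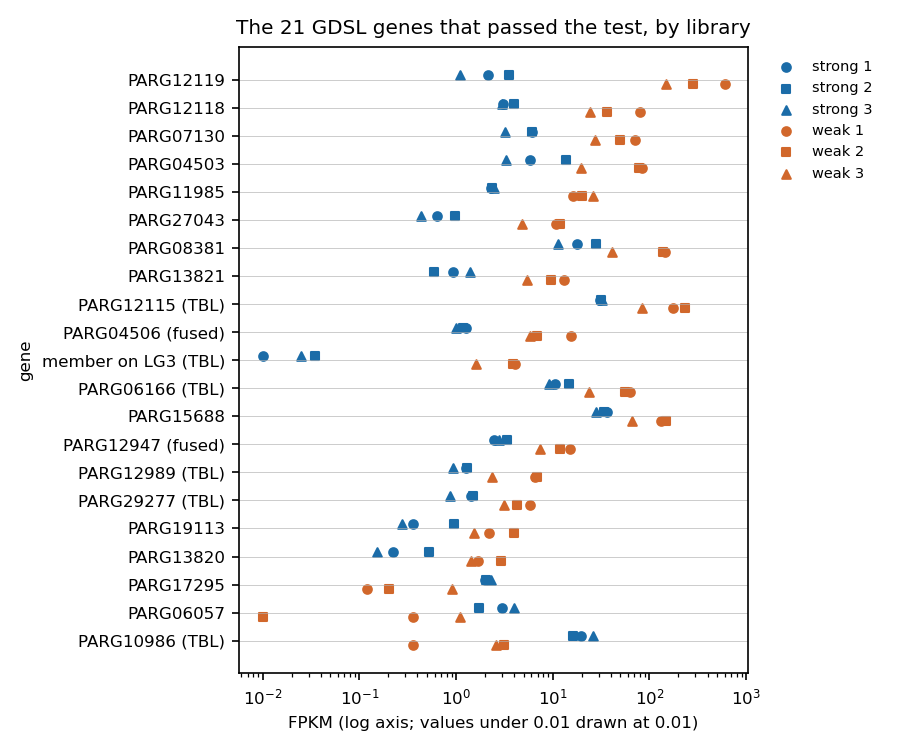
Each of the 21 members that passed the test is a row, with its FPKM in the strong libraries (blue) and the weak libraries (orange) on a log axis, ordered from the most negative to the most positive log2 difference. The clones do not overlap in any of the 21 rows, as in all 1239 higher and all 1281 lower genes called in the whole table. In 17 of the 18 members that were lower in the strong clone weak library 3 is the lowest weak library, as in 1137 of those 1281 genes.

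PARG12119 showed the largest difference among the 72 members tested. It lies on linkage group 3 (22161505 to 22164003, minus strand, 1353 bases of gene length) and is named for its similarity to the Arabidopsis GDSL esterase/lipase At1g28590, described as extracellular. Its level was 2.14, 3.50 and 1.10 FPKM in strong libraries 1, 2 and 3 and 603, 285 and 150 FPKM in weak libraries 1, 2 and 3. Every strong library was thus far below every weak library, on 198 reads from the strong and 16873 from the weak clone. The means were 2.25 ± 1.20 and 346 ± 233 FPKM (SD, n = 3), 154-fold higher in the weak clone, a change of -6.58 ± 0.54 on the log2 scale (± SE, limma adjusted p = 0.00299). It passed under all 14 alternative settings tried, with differences from -7.07 to -6.07 when a library was left out.

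Of the 4 other GDSL genes in the run around PARG12119, 2 were lower in the strong clone (7.78% of all tested genes were) and 2 did not pass. Directly beside it, PARG12118 (22155243 to 22160735, similar to At5g45910) was at 3.05, 4.01 and 2.98 FPKM in the strong libraries and 79.4, 36.8 and 24.4 FPKM in the weak libraries, without overlap (log2 difference -3.30 ± 0.42, limma adjusted p = 0.00905). On the other side, PARG12120 (similar to At2g27360) was at 8.12, 11.5 and 6.38 FPKM against 12.6, 13.5 and 9.29 FPKM, with overlapping libraries, and did not pass (-0.42 ± 0.27, adjusted p = 0.235). PARG12125 (similar to At5g45920) also overlapped and did not pass, at 32.5, 51.0 and 26.2 FPKM against 91.2, 96.1 and 30.6 FPKM (adjusted p = 0.201). PARG12115, a TBL38-like gene at the start of the run (22136328 to 22139921), stood at 31.2, 31.3 and 32.7 FPKM in the strong libraries and at 177, 235 and 84.8 FPKM in the weak libraries. This gene varied little among the strong libraries and passed the test (-2.23 ± 0.38, adjusted p = 0.0179). In a window of 200 kb that holds the run, 19 genes that are no members were tested, with differences from -1.01 to 2.94, and 1 passed.

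**Figure D3:**
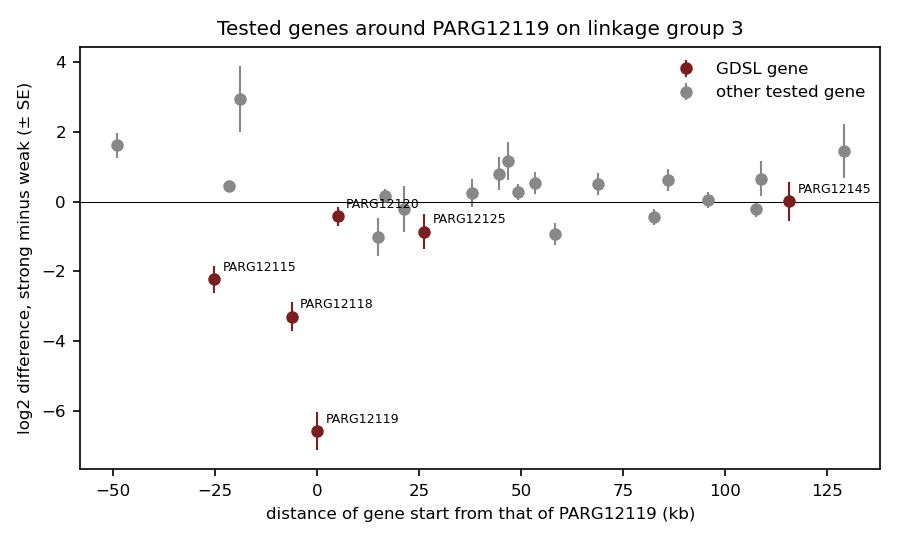
Points give the log2 difference, strong minus weak, with its standard error for each tested gene around PARG12119, against the distance of its start from the start of PARG12119 in kb. The 3 GDSL genes that passed lie at -2.23, -3.30 and -6.58, while the other genes between and around them lie between -1.01 and 2.94.

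Lipases named EXL and APG were lower in the strong clone where they passed. The EXL and APG group held 6 genes, of which 3 were tested, 0 were higher and 2 lower (0 higher and 2 lower at an unadjusted p below 0.05 and by limma voom on reads). Of all tested genes 7.53% were higher and 7.78% lower, and 3 tested genes are too few to set against these shares. EXL lipases are extracellular, and some of the family belong to the pollen coat of Arabidopsis. No gene of this group has a pollen or anther term in its description. The EXL3-like gene PARG07130 (linkage group 2, 28350934 to 28362262) was at 6.11, 6.15 and 3.24 FPKM in the strong libraries and 70.9, 50.2 and 27.4 FPKM in the weak libraries. Its clones did not overlap (-2.97 ± 0.40, limma adjusted p = 0.01). The APG gene PARG15688 (linkage group 4, 21739167 to 21741411), more abundant in both clones, was at 36.6, 34.4 and 28.0 FPKM against 133, 148 and 66.7 FPKM (-1.71 ± 0.34, adjusted p = 0.0263). Next to PARG07130, the EXL3-like PARG07131 was at 7.95, 8.98 and 3.82 FPKM against 5.40, 13.0 and 4.34 FPKM, with overlap (adjusted p = 0.932), and the other 3 EXL3-like genes did not reach the filter.

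Other lipase-domain genes that were lower carry names that tell little of their role. PARG11985 (linkage group 3, 21290991 to 21293821, similar to At1g29660) was at 2.30, 2.38 and 2.48 FPKM in the strong libraries and 16.3, 20.3 and 26.1 FPKM in the weak libraries. It is the exception among the lower members in that weak library 3 was the highest, and with PARG12119 it was the only named member that passed under all 14 alternatives (-2.67 ± 0.23, limma adjusted p = 0.0032). The esterase gene PARG08381 (linkage group 2, 36310165 to 36312171), similar to the early nodule-specific protein homolog and latex allergen Hev b 13 of the rubber tree, was at 17.8, 27.8 and 11.3 FPKM against 145, 139 and 41.5 FPKM. Its libraries did not overlap (-2.35 ± 0.56, adjusted p = 0.0409), though the call was lost without the filter on low values and with a filter at 5 FPKM (adjusted p = 0.0506 and 0.051).

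PARG04503 (linkage group 2, similar to At4g16230) was at 5.87, 13.7 and 3.28 FPKM in the strong libraries and 84.5, 78.0 and 19.5 FPKM in the weak libraries. Strong library 2 and weak library 3 came close to each other in this gene, and its call (-2.78 ± 0.68, limma adjusted p = 0.043) was lost with a pseudocount of 0.1, no filter or a filter at 5 FPKM (adjusted p = 0.0507, 0.0539 and 0.0525). PARG27043 on linkage group 8, similar to At2g23540, averaged 0.677 ± 0.270 FPKM for the strong and 9.16 ± 3.76 FPKM for the weak clone (SD, n = 3). PARG13821 on linkage group 4, similar to At2g04570, averaged 0.973 ± 0.402 and 9.38 ± 3.83 FPKM. Their log2 differences were -2.53 ± 0.35 and -2.34 ± 0.34 (adjusted p = 0.0105 and 0.0123). The remaining lower lipase-domain genes, PARG13820 and PARG19113, named after their values were seen, stayed under 4 FPKM in every library and differed by -1.19 ± 0.25 and -1.20 ± 0.32 (adjusted p = 0.0318 and 0.0497). The call of PARG19113 was lost with a pseudocount of 0.1, no filter, equal sums, no trend and voom (adjusted p = 0.0569, 0.0595, 0.0709, 0.0518 and 0.0536).

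The most abundant lipase-domain gene of the strong clone, PARG02752 (linkage group 1, 21147308 to 21151123, similar to At1g09390), was at 71.6, 92.5 and 44.6 FPKM in strong libraries 1, 2 and 3. In weak libraries 1, 2 and 3 it was at 298, 269 and 89.3 FPKM. Weak library 3 lay just below strong library 2, so the clones overlapped, and the gene did not pass (-1.52 ± 0.53, limma adjusted p = 0.0798). PARG11988 (similar to At1g29670, 24.0 ± 9.23 against 53.1 ± 29.2 FPKM) also overlapped and did not pass (adjusted p = 0.184). PARG24641 (similar to At5g62930, 26.1 ± 2.16 against 54.4 ± 19.9 FPKM) was without overlap but did not pass either (adjusted p = 0.0717).

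Of the 37 lipase-domain genes tested, 2 were higher in the strong clone, both at low levels, against 11 lower (35.1% called). Of all tested genes 7.53% were higher and 7.78% lower, together 15.3%. PARG06057, similar to At3g26430, was at 3.00, 1.71 and 3.95 FPKM in the strong libraries and 0.357, 0 and 1.11 FPKM in the weak libraries (1.41 ± 0.36, limma adjusted p = 0.0467). PARG17295, similar to At5g03610, was at 1.98, 2.05 and 2.30 FPKM against 0.121, 0.202 and 0.920 FPKM (1.18 ± 0.26, adjusted p = 0.0331). Neither call held with a pseudocount of 0.1 (adjusted p = 0.078 and 0.0555), and that of PARG06057 was also lost with no filter, quantile scaling and voom (0.0565, 0.0593 and 0.0675). PARG06057 belongs to a run of 4 genes on linkage group 2 (21623803 to 21633086) with no other gene between them. Its neighbour PARG06059, also similar to At3g26430, was among the most abundant members of the strong clone, at 41.6, 32.4 and 54.0 FPKM. In the weak libraries it was at 0.867, 1.28 and 19.6 FPKM, with weak library 3 well above its companions though under every strong library, and the gene did not pass (3.27 ± 0.90, adjusted p = 0.0547). PARG26704, similar to At5g03610 like PARG17295, was at 18.01, 18.32 and 26.1 FPKM against 5.29, 4.61 and 14.5 FPKM, without overlap, and did not pass (1.40 ± 0.42, adjusted p = 0.063).

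**Figure D4:**
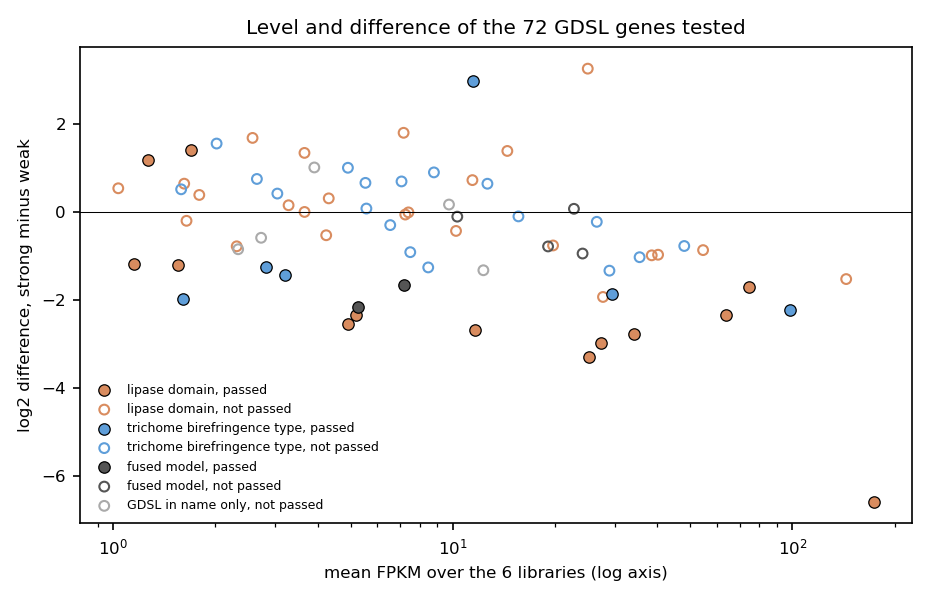
Each of the 72 members tested is a point, with its mean FPKM over the 6 libraries on a log axis and its log2 difference, strong minus weak. Filled points passed the test. All 17 members with a mean of at least 25 FPKM lie below 0 (15 of them do so with equal sums), down to -6.58 in PARG12119. Of the 4145 tested genes of that level in the whole table, which are not drawn, 2839 had a negative difference. Members at lower levels lie on both sides, with PARG06059 at 3.27 and a mean of 24.98 FPKM just under that bound. The mean includes both clones, so the level of a member is not independent of its difference.

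The members were also grouped by level, with bounds of 5 and 25 FPKM chosen after the values were seen. All 17 members with a mean of at least 25 FPKM over the 6 libraries had a negative difference (15 of them with equal sums), with a median of -1.71, and 8 of them passed as lower and 0 as higher (11 lower and 0 higher at an unadjusted p below 0.05, 8 and 0 by voom). The 4145 tested genes of that level in the whole table had 1306 positive and 2839 negative differences and a median of -0.53. Of them 215 passed as higher and 331 as lower, together 13.2%. The all-negative count rests on where the upper bound lies, since PARG06059, with a mean of 24.98 FPKM, lies just below it and had a difference of 3.27. The mean is over both clones, so a member could pass the bound through the weak clone alone. PARG12119 did so at 2.25 FPKM in the strong and 346 FPKM in the weak clone, and PARG12118 at 3.35 and 46.9 FPKM. PARG06059, at 42.7 and 7.26 FPKM, did not reach it. Level and difference are thus not independent here, and no trait of abundant members is read from these groups. Among the 28 members between 5 and 25 FPKM, 12 differences were positive and 16 negative, with 1 higher and 4 lower (17.9% called). All tested genes of that level had 4054 positive and 3270 negative differences, and 13.6% were called. Among the 27 tested members under 5 FPKM 16 were positive and 11 negative, with 2 higher and 6 lower (29.6% called) and a median of 0.32. All tested genes of that level had 3193 positive and 1800 negative differences and a median of 0.34, and 19.5% were called.

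Groups named for lipases other than those above gave 0 calls by limma. Each had few tested genes, and with 15.3% of all tested genes called, 0 calls in so few genes is not read as a lack of difference. Of 9 genes named for the numbered GDSL lipases (GLIP), of which GLIP1 takes part in resistance to fungi in Arabidopsis, 3 had no read in any library. In the 2 GLIP genes tested, limma called 0 (1 higher and 1 lower at an unadjusted p below 0.05, 0 by voom). They stand in the same run on linkage group 4 (23475861 to 23543698) and pointed in opposite directions. PARG15910, similar to GLIP5, was at 5.17, 2.73 and 5.09 FPKM in the strong libraries and 0, 0.331 and 2.12 FPKM in the weak libraries (1.69 ± 0.46, adjusted p = 0.0538). PARG15909, similar to GLIP2 but with GDSL in name only, was at 6.47, 8.75 and 3.57 FPKM against 25.4, 22.3 and 7.38 FPKM (-1.32 ± 0.51, adjusted p = 0.094), so both differences missed the threshold.

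Both LTL1-like genes on linkage group 1, named for a lipase that raises lithium tolerance in Arabidopsis, were highest in weak library 3 and overlapped between the clones. PARG03191 was at 1.01, 1.51 and 1.16 FPKM in the strong libraries and 0.972, 2.61 and 6.61 FPKM in the weak libraries (limma adjusted p = 0.228). PARG03192 was at 3.62, 1.91 and 3.65 FPKM against 1.91, 5.40 and 8.95 FPKM (adjusted p = 0.391). In the LTL1 pair limma called 0, with 0 at an unadjusted p below 0.05 and 0 by voom, where limma called 15.3% of all tested genes. The 6 genes similar to At1g54790, At2g42990 and At3g48460, loci that lower the fatty acid content of Arabidopsis seeds, included 4 tested genes, all with positive differences (2 of them with quantile scaling), a median of 0.41 and 0 calls by limma (1 higher and 0 lower at an unadjusted p below 0.05, 0 by voom). Among the tested genes of this group, PARG23655 and PARG24462 carry GDSL in name only. Of 3 genes similar to CPRD49, named for a drought-responsive gene of cowpea, 1 was tested (PARG29536) at 4.86 ± 0.326 against 3.76 ± 0.876 FPKM (adjusted p = 0.273).

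The TBL type divided in direction. Of its 24 tested genes 1 was higher and 5 were lower in the strong clone (25% called, against 15.3% of all tested genes). There were 11 positive and 13 negative differences, with a median of -0.15. With equal sums the same genes had 15 positive and 9 negative differences and a median of 0.64. The gene that was higher, PARG10986 (linkage group 3, 14402009 to 14405796), is similar to TBL43. It was at 19.8, 16.4 and 26.4 FPKM in the strong libraries and 0.356, 3.15 and 2.58 FPKM in the weak libraries, without overlap (2.98 ± 0.46, limma adjusted p = 0.0135). This was a 10.3-fold higher mean in the strong clone, and in this gene weak library 3 lay among the weak libraries.

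On the same linkage group as PARG10986, a TBL-type gene with an identifier outside the PARG series and no named protein (linkage group 3, 14340825 to 14342313) ran the other way. It was at 0, 0.0345 and 0.025 FPKM in the strong libraries and 4.08, 3.90 and 1.61 FPKM in the weak libraries. The strong clone had 2 reads and the weak clone 176, where a difference in gene sequence or copies cannot be told apart from expression (-1.98 ± 0.29, limma adjusted p = 0.0128). It was the only member with at least 1 FPKM in every library of a clone and under 0.1 in every library of the other.

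The genes similar to ALTERED XYLOGLUCAN 4, which acetylates xyloglucan in Arabidopsis, were lower. PARG06166 (linkage group 2, 22382498 to 22384912) was at 10.6, 14.8 and 9.11 FPKM in the strong libraries and 62.8, 55.8 and 23.7 FPKM in the weak libraries (-1.87 ± 0.40, limma adjusted p = 0.0324). PARG12989 on linkage group 4 was at 1.26, 1.30 and 0.943 FPKM against 6.50, 6.90 and 2.38 FPKM (-1.44 ± 0.36, adjusted p = 0.0456). The clones did not overlap in either, and the call of PARG12989 was lost with equal sums (adjusted p = 0.0592), with voom (0.0587) and with no filter (0.0617). A TBL34-like gene on a contig outside the linkage groups, PARG29277, was lower at 1.26 ± 0.339 against 4.39 ± 1.35 FPKM (-1.24 ± 0.26, adjusted p = 0.0309), and this call was lost with equal sums (-0.68, adjusted p = 0.0813).

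Some TBL genes named for loci studied in Arabidopsis were not called. ESKIMO 1 is a xylan acetyltransferase whose loss makes Arabidopsis more tolerant of freezing, and the gene named for it here, PARG19097 (linkage group 5, 22796248 to 22799509), was at 0.116, 0.0271 and 0.255 FPKM in the strong libraries and 0.102, 0.0971 and 0.507 FPKM in the weak libraries. At these levels it was not tested. The PMR5-like gene PARG00507, named for a powdery mildew resistance locus, was at 15.9, 13.9 and 14.8 FPKM against 18.1, 11.2 and 19.7 FPKM, with overlap (-0.09 ± 0.25, limma adjusted p = 0.772). PARG26489, similar to TRICHOME BIREFRINGENCE, which affects cellulose in leaf hairs, was at 24.5 ± 4.10 and 28.6 ± 3.93 FPKM (-0.22 ± 0.21, adjusted p = 0.415). Among the most abundant of the type, the TBL39-like PARG14943 (32.2 ± 10.01 against 63.9 ± 37.6 FPKM) and the TBL25-like PARG18449 (22.4 ± 8.53 against 48.6 ± 22.7 FPKM) did not pass (adjusted p = 0.303 and 0.118).

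In the 6 joined models the level belongs to the whole model, and the share of the GDSL part is not known. Of these 0 were higher and 2 lower (0 and 3 at an unadjusted p below 0.05 and by voom). Among all tested genes 7.53% were higher and 7.78% lower. A model named peroxidase 29 (PARG04506, linkage group 2, 9319695 to 9334778) starts close to PARG04503, and was at 1.26, 1.19 and 1.01 FPKM in the strong libraries and 15.4, 6.88 and 5.87 FPKM in the weak libraries (-2.16 ± 0.35, limma adjusted p = 0.0159). The model named L-aspartate oxidase (PARG12947), an enzyme of NAD synthesis, was at 2.87 ± 0.435 against 11.5 ± 3.88 FPKM (-1.65 ± 0.28, adjusted p = 0.0182), and this call was lost with equal sums (adjusted p = 0.0528). A microtubule-associated protein model with a TBL domain (PARG19372) was at 23.4 ± 1.71 and 22.1 ± 1.07 FPKM (adjusted p = 0.713). Of the 13 genes with GDSL in name only, 5 were tested and limma called 0 (1 higher and 2 lower at an unadjusted p below 0.05, 0 by voom). Limma called 15.3% of all tested genes.

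The position of the genes was not used to choose them, and many stood in runs. Runs of at least 3 members no more than 50 kb apart numbered 13 and held 54 of the 139 genes. Of the 27 tested genes in runs 2 were higher and 9 lower (40.7% called), and of the 45 tested genes outside runs 1 was higher and 9 lower (22.2%), where 15.3% of all tested genes were called. The difference between genes in and outside runs was not tested. Reads shared between near-identical neighbours could have been assigned to a neighbour in ways the table does not show, so single genes of a run are uncertain to that degree. Levels within a run were unequal. In the run of 7 esterase genes around PARG08381, PARG08379 was at 8.94, 14.5 and 6.40 FPKM in the strong libraries and 55.3, 65.2 and 15.8 FPKM in the weak libraries (limma adjusted p = 0.0613). The other 5 genes of that run did not reach the filter, and a run of 5 TBL6-like genes on linkage group 6 had a single tested member (PARG19865).

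The 67 members that were not tested were at low levels, up to 3.55 FPKM in a library. Among them 16 had no read in any library, and 51 had reads, of which 5 had reads in the strong clone only and 5 in the weak clone only. No clone difference is read from such low counts.

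Weak library 3 had the lowest pollen sum of the weak clone and, in most members that passed, also the smallest distance to the strong libraries. In 17 of the 18 members that were lower in the strong clone (94.4%), the level in weak library 3 was above every strong library and below weak libraries 1 and 2, as it was in 88.8% of all genes called lower. Genes drawn by photosynthesis terms in their descriptions (56 genes, 5 of them at 0 in every library) summed to 5758 to 6674 FPKM in the strong libraries and 3924 to 4212 FPKM in the weak libraries. The most abundant of them, PARG03488, is named for an early light-induced protein and ran against the list sum. It was at 261, 364 and 180 FPKM in strong libraries 1, 2 and 3 and at 1517, 1103 and 430 FPKM in weak libraries 1, 2 and 3. Of the 46 genes of this list that were tested, 18 were higher and 3 lower (45.7%, against 15.3% of all tested genes). The lower genes included early light-induced protein 1 (PARG03490) and chlorophyll a-b binding protein 4 (PARG22825). The part of pollen or green tissue in the differences of the GDSL genes was not tested.

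Lists for other organs of the flower were shorter, and larger shares of them were called than the 10.7% of the pollen genes and the 15.3% of all tested genes. Genes drawn by terms of the tapetum and exine, which form the pollen wall (53 genes, 6 at 0), summed to 295 to 425 FPKM (strong) and 389 to 1138 FPKM (weak), with 2 higher and 4 lower of 25 tested (24%). The most abundant of them, PARG23812, is named oxalate--CoA ligase, so the sum is not one of pollen wall genes alone. PARG23812 was at 97.8, 106 and 103 FPKM in strong libraries 1, 2 and 3 and at 223, 215 and 68.6 FPKM in weak libraries 1, 2 and 3. The pistil list (30 genes, 16 at 0) summed to 43.4 to 115 FPKM and 70.8 to 351 FPKM, and limma called 0 higher and 2 lower of 8 tested (25%, with 0 and 4 at an unadjusted p below 0.05, 0 and 2 by voom). Genes of petal pigment (36 genes, 7 at 0) summed to 369 to 457 FPKM and 633 to 1343 FPKM, with 2 higher and 5 lower of 22 (31.8%). The part of these organs was not tested either. These lists were drawn by terms in the descriptions, and some genes fall in more than 1. PARG04442 is in the petal pigment and the tapetum lists, and PARG01275 and PARG01277 are in the tapetum and the cutin and wax lists. In the pistil list PARG19941, named for a desiccation-related protein, was at 238, 192 and 31.2 FPKM in weak libraries 1, 2 and 3. List sums there were 351, 309 and 70.8 FPKM, so PARG19941 made up most of the sum in weak libraries 1 and 2. In strong libraries 1, 2 and 3 its levels were 10.2, 24.3 and 9.55 FPKM, of sums of 64.9, 115 and 43.4 FPKM. Called lower in this list were PARG24424, without a named protein, and PARG20305, named ribonuclease S-3. PARG20305 averaged 0.0548 FPKM for the strong and 5.14 FPKM for the weak clone (limma adjusted p = 0.00436).

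Lists drawn by terms for cutin and wax, lipid transfer, and other lipases and esterases are given for comparison. They are not limited to surface lipids, since they include phospholipases and, in the cutin and wax list, an acylglycerol phosphate acyltransferase (PARG07333). Of all tested genes 7.53% were higher and 7.78% lower, together 15.3%. Of 72 tested genes drawn by cutin and wax terms 3 were higher and 11 lower (19.4% called), with a median log2 difference of -0.37. Long chain acyl-CoA synthetase 2 (PARG21397), which acts in cutin synthesis in Arabidopsis and is named after its values were seen, was at 1.88 ± 0.199 FPKM for the strong and 12.9 ± 2.46 FPKM for the weak clone (-2.26 ± 0.22, limma adjusted p = 0.00436). The most abundant of that list, ECERIFERUM 3 (PARG24351), a protein of wax alkane synthesis, did not pass (adjusted p = 0.0798), at 47.7 ± 21.5 FPKM for the strong and 175 ± 98.6 FPKM for the weak clone. Of 18 tested lipid-transfer protein genes 1 was higher and 2 lower (16.7% called), with a median of -0.07. The 86 tested lipases and carboxylesterases without GDSL in their description gave 11 higher and 2 lower (15.1% called) and a median of -0.24. The difference from the GDSL genes was not tested. The carboxylesterase 15-like gene PARG16777 was at 8.42 ± 1.99 against 0.276 ± 0.477 FPKM (2.92 ± 0.32, adjusted p = 0.00644), and the most abundant of this list, phospholipase A2-alpha (PARG03902), did not pass (adjusted p = 0.093), at 424 ± 240.0 FPKM for the strong and 1512 ± 808 FPKM for the weak clone.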

How the data were processed

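The authors deposited FPKM values per gene with gene positions, lengths and descriptions. The submitters' processing notes name CASAVA, RSEM and Bowtie2. No version and no genome build is given in the sources used here. Columns were matched to samples by title, and groups come from the group label. Multiplied by gene length, 100% of the positive values in a library could be divided by a common step to give a whole number of reads, within 0.01 read, and a gene of 1 kb gained 0.0372 to 0.0965 FPKM per read. All pairs of libraries of a clone differed by more than sampling noise (chi-square of 11.3 or more per degree of freedom).

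Differences, strong minus weak, come from limma (version 3.58.1, under R 4.3.3) with the trend option, two-sided, on log2(FPKM + 1), which understates changes of low genes. The method was tested on simulated data. The planned count-based tests were not run because the unit is FPKM, and limma voom on recovered reads was added after the data were seen. The voom fit used the library size behind the FPKM values, not the read totals. Its calls therefore carry the same scaling and do not test it. The step and the scaling are the authors', and intervals for counting error are not given. Members and lists were chosen with earlier results of these data known. The rule named the members that passed and averaged 5 FPKM or more in either clone, the 10 most abundant members, PARG12119, members near 0 in 1 clone, and runs. Other genes are named for their role, their place in a run or their call, and were chosen after their values were seen. Lists of other genes are given by counts and a few genes. Sums, shares and numbers of genes were tested by exact permutation over libraries. Alternatives covered the pseudocount, filter, scaling, trend, replicate block and each left-out library. No sequence was used here.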

Additional observations from a re-analysis of the deposited data

How the results depend on the processing

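The number of members called, 21, moved to 11 with a filter at 5 FPKM, where only 47 members were tested (1 higher and 10 lower), and stayed within 1.5 times with the other scalings, pseudocount, filter, trend and voom. The 3 higher members became 1 with a pseudocount of 0.1. Of the 21, 17 were shared with equal sums, 16 with no filter and 18 with voom. Leaving out a library gave 2 to 55 members called, 0 to 21 higher and 2 to 34 lower, and family medians from -0.47 to -0.39. The median was -0.081 with no filter, -0.78 at 5 FPKM, 0.31 with equal sums and -0.60 with voom. With equal sums the family's mean log2 difference turned from -0.49 to 0.16, the difference in members at 1 FPKM from -2 to 7, and PARG14943 to 0.053. The cause was not tested. The difference in summed FPKM kept its direction without PARG12119, the most abundant member. Whether the same title numbers pair the libraries of the clones is not known, and the main test treated them as unpaired. Correlations of deviations were -0.236, 0.588 and 0.605 for numbers 1, 2 and 3, and -0.675 to 0.619 for unlike numbers. They cannot decide this, because deviations from a mean of 3 libraries depend on each other. With the replicate block 39 members passed, 10 higher and 29 lower, where 39.1% of all genes did. For genes under a few FPKM, 1 read was worth up to 0.0965 FPKM per kb, which limits their differences.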
